A study of Homo sapiens with 6 samples.

Results

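A set of 10 genes of the Hippo pathway was followed in a transcriptome experiment on MDA-MB-453 cells: the coactivators YAP1 and WWTR1 (the gene of TAZ), the transcription factors TEAD1, TEAD2, TEAD3 and TEAD4, the kinases LATS1 and LATS2, and the target genes CYR61 and CTGF. They were taken by name as kinases, coactivators, DNA-binding partners and targets of the pathway, and all 10 were rows of the deposited table of 36517 genes. MDA-MB-453 is an established human breast cancer cell line. The control group carried a lentiviral negative-control short hairpin RNA, and the shtRF group carried a lentiviral hairpin directed at tRF-1-Ser, a small RNA cut from the trailer of a serine tRNA precursor. Both groups were taken on day 3, with 3 libraries each, and both were lentivirally transduced lines grown in the same medium. The comparison asks which transcripts differ when tRF-1-Ser is targeted. The target itself is too short for these mRNA libraries, so its knockdown was not checked here. The methods call the replicates biological. Whether they were separate transductions or cultures is not given in the sources used here, so p-values measure only the spread between these libraries.

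The Hippo pathway restrains growth in epithelia. The kinases MST1 and MST2 (genes STK4 and STK3) with their adaptors activate LATS1 and LATS2, which phosphorylate YAP and TAZ and hold them in the cytoplasm. When LATS activity is low, YAP and TAZ enter the nucleus, bind TEAD proteins, which contact DNA, and switch on genes such as CTGF and CYR61. Much of this control acts on protein phosphorylation and location, which mRNA libraries do not measure.

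TEAD proteins bind a core element, GGAATG on one strand and CATTCC on the other. The letters were searched on both strands in RefSeq promoter windows (GRCh38.p14) that run from 250 bases before to 50 bases after each annotated start. Of the 10 members, 7 had a window, and some of these had several. CTGF held 3 matches, YAP1 and LATS2 held 1 each, and WWTR1, TEAD2, TEAD3 and LATS1 held none in these windows. Counted by window, 3 of the 10 windows of these members (30%) held a match. Over all 35116 windows, 14.03% held at least 1 match and 0.128% held 3 or more. The 3 matches of CTGF began at positions -169, -104 and -95 from its start site, that of YAP1 at -162 and that of LATS2 at 10, past the start. A match describes letters only, and binding was not measured.

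The 250 bases before the start are shown for CTGF, the member richest in the element, for YAP1, for THBS1, the most abundant target described below, whose match began at -46, and for TEAD2, the member that fell most and held no match. Capitals mark the TEAD element, and each is written 5′ to 3′ on the strand of its gene. The windows lie at chr6:131951373-131951622 (minus strand), chr11:102110197-102110446 (plus), chr15:39580829-39581078 (plus) and chr19:49362417-49362666 (minus).
CTGF: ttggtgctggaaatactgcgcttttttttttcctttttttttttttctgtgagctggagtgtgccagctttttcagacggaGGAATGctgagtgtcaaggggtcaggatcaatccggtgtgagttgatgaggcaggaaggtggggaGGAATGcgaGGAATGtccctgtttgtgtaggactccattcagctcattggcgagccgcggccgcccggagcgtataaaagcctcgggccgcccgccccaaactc
YAP1: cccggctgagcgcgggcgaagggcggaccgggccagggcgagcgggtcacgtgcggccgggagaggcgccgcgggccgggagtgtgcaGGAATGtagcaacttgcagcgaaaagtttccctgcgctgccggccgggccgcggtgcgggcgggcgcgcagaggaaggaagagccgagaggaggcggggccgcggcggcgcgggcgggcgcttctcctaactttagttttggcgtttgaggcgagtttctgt
THBS1: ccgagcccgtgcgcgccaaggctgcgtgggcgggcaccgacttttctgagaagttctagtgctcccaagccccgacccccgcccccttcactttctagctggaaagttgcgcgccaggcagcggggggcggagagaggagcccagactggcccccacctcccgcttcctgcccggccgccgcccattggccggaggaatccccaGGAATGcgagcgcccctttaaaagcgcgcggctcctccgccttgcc
TEAD2: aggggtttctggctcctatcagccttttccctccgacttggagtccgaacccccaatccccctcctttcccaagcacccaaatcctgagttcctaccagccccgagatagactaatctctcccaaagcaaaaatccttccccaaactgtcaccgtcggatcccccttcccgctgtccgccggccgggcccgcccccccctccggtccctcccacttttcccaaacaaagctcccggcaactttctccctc

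The libraries held between 63541413 and 78917459 counts each, and 19628 genes had enough counts to be tested. The groups stood apart: 4046 genes (20.6%) were higher and 3704 (18.9%) lower in shtRF at an adjusted p under 0.05, 39.5% in either direction, and in 48.7% of tested genes the 3 control and 3 shtRF libraries did not overlap. With upper quartile scaling the balance turned, to 3508 higher and 4174 lower. The adjusted p-values in the text are from edgeR's quasi-likelihood test with Benjamini-Hochberg adjustment over all tested genes, log2 fold changes are shtRF minus control with their standard error (SE), and the median over all tested genes was -0.0025. Markers of luminal apocrine breast cancer were present: all 11 were tested, and KRT8, an epithelial keratin, rose from 1557 to 2691 CPM (counts scaled to library total and TMM factor). Their summed level was 4884 to 4978 CPM in control and 5988 to 6458 in shtRF. The oestrogen and progesterone receptor genes together stayed at or below 0.532 CPM and the immune and endothelial markers at or below 0.551. Of the fibroblast markers only COL1A1 was above 1 CPM, and the list summed to 29.9 to 35.9 CPM in control and 20.8 to 21.5 in shtRF; the part of these shifts in the results below was not tested.

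By length-scaled level (RPKM, counts scaled to gene length and library total, mean over 6 libraries), YAP1 was highest at 14.4, followed by TEAD3 at 9.44, TEAD4 at 5.40, TEAD2 at 3.92, CYR61 at 3.47, LATS1 at 1.67, WWTR1 at 1.30 and LATS2 at 1.13. TEAD1 at 0.0195 and CTGF at 0.0183 were near the limit of detection. The library ranges of YAP1 and TEAD3 were separate, as were those of TEAD3 and TEAD4, of CYR61 and LATS1, and of LATS2 and TEAD1. The ranges of the other neighbours overlapped over the 6 libraries. Within groups, 2 pairs of neighbours changed places. TEAD2 was above CYR61 in control (4.71 to 5.82 against 3.14 to 3.50 RPKM) and below it in shtRF (2.30 to 2.59 against 3.39 to 3.96). WWTR1 was above LATS2 in control (1.60 to 1.75 against 0.970 to 1.07 RPKM) and below it in shtRF (0.883 to 1.02 against 1.15 to 1.36). TEAD4 and TEAD2 overlapped in control (4.94 to 5.85 RPKM for TEAD4) and were separate in shtRF (5.32 to 5.47), and LATS1 was above WWTR1 in both groups. The place of TEAD2 depends on reads shared with an overlapping gene, CD37, described below. With all CD37 counts taken away, TEAD2 was at 0.446 to 1.74 RPKM in control and 0.0528 to 0.394 in shtRF. It was then below TEAD4 and CYR61 in both groups, so it no longer changed places with CYR61. The plot of member levels by library shows the order without that subtraction.

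**Figure D1:**
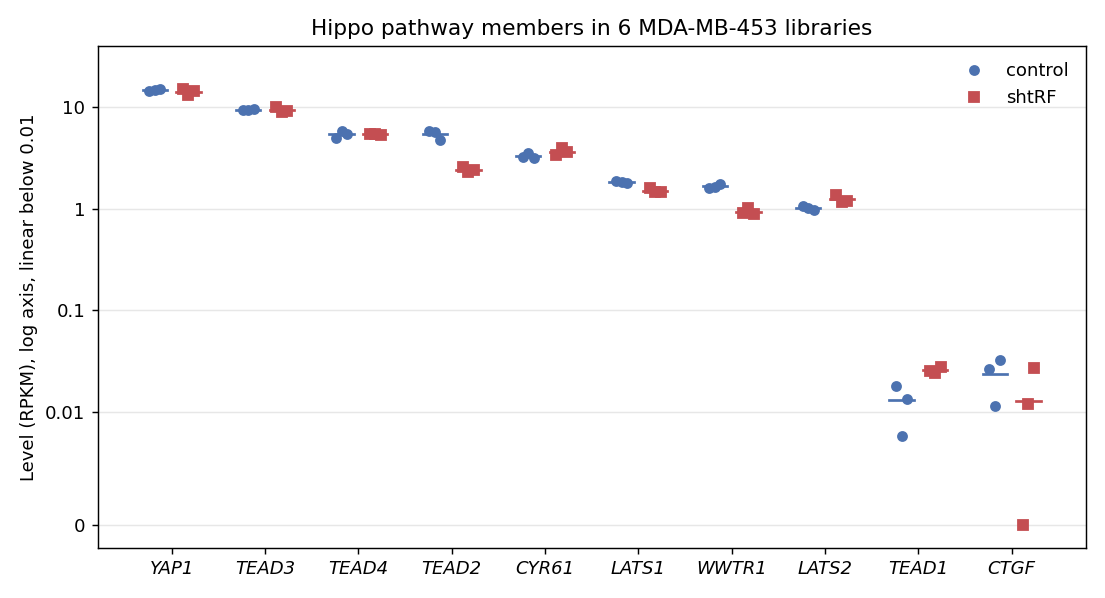
Level of each member in RPKM, on a log axis that is linear below 0.01, in the 3 control (circles) and 3 shtRF (squares) libraries, with a bar at each group mean. YAP1 is highest (13.1 to 15.1 RPKM over the 6 libraries), TEAD2 and WWTR1 sit lower in all 3 shtRF libraries, and TEAD1 and CTGF lie below 0.04 RPKM.

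Of the 10 members, 9 had enough counts to be tested: 1 was higher, 3 were lower and 5 did not pass the threshold, beside 20.6% higher and 18.9% lower among all tested genes. The groups did not overlap for 5 of the 9, beside 48.7% of all tested genes, and the members' median log2 fold change was 0.040. TEAD1 passed the filter on low counts only through the shtRF libraries. The member counts are therefore a description of these genes and no more.

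The 2 coactivators behaved differently. YAP1, the main partner of TEADs in epithelial cells (GRCh38 chromosome 11, 102110461 to 102233423, plus strand), was at 89.5, 90.6 and 93.9 CPM in control and 93.2, 85.8 and 92.8 CPM in shtRF. The groups overlapped. The log2 fold change was -0.012 ± 0.054 (SE, n = 3 per group, adjusted p = 0.888 by edgeR), and the 95% interval ran from -0.12 to 0.099. An antisense gene, RP11-864G5.3, lies over at most 9.97% of the exonic bases of YAP1, and taking its counts away left a change of 0.0075.

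WWTR1, the gene of TAZ (chromosome 3, 149517235 to 149736714, minus strand), was at 13.3, 13.5 and 14.5 CPM in control and 7.53, 8.91 and 7.61 CPM in shtRF. Every shtRF library was below every control library. Mean WWTR1 was 13.8 ± 0.680 CPM in control and 8.02 ± 0.775 in shtRF (SD, n = 3), so it fell 1.72-fold. On the log2 scale the change was -0.78 ± 0.091 (edgeR adjusted p = 4.64e-07). Its antisense gene WWTR1-AS1 covers at most 9.45% of its exonic bases and had a log2 fold change of -0.75 (edgeR adjusted p = 0.0324). Taking the WWTR1-AS1 counts away left WWTR1 at -0.78. Within each library the RPKM ratio of WWTR1 to YAP1 was 0.111, 0.112 and 0.116 in control and 0.0605, 0.0778 and 0.0614 in shtRF. The groups did not overlap, and the exact two-sided permutation test gave p = 0.1, the smallest that 3 against 3 libraries allow (0.114 after adjustment over the 8 ratios and shares compared).

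Among the 4 TEAD genes, only TEAD2 passed the test. TEAD2 (chromosome 19, 49340595 to 49362457, minus strand) was at 17.0, 16.5 and 13.9 CPM in control and 7.66, 7.12 and 7.39 CPM in shtRF. No shtRF library reached the lowest control library. Mean TEAD2 was 15.8 ± 1.68 CPM in control and 7.39 ± 0.269 in shtRF (SD, n = 3), so it fell 2.14-fold. On the log2 scale the change was -1.09 ± 0.093 (edgeR adjusted p = 3.54e-09).

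The TEAD2 value shares sequence with a neighbour. CD37, a leukocyte tetraspanin gene on the opposite strand, overlaps at most 10.7% of the exonic bases of TEAD2. The level of CD37 was 12.7 CPM in control and 6.56 in shtRF, while the immune and endothelial markers were near 0. On the log2 scale CD37 changed by -0.95 (edgeR adjusted p = 1.37e-07). CD37 held 862 to 1003 counts per control library and 405 to 461 per shtRF library, close to the 1108 to 1244 and 458 to 538 of TEAD2. Whether strand was used in the counting is not given in the sources used here, so reads of the 2 genes over the shared bases cannot be told apart. If every CD37 count were also a TEAD2 count, TEAD2 would keep 186, 382 and 105 counts in control and 77, 84 and 10 in shtRF. The change then was -1.87 ± 0.42 (edgeR adjusted p = 0.0011), an alternative added after the data were seen. The direction and call were kept under that bound, but the level of TEAD2 was not fixed by these counts.

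TEAD3 (chromosome 6, 35473597 to 35497076, minus strand), the most abundant TEAD here, was at 28.3, 28.1 and 28.7 CPM in control and 30.4, 28.5 and 28.6 CPM in shtRF. Its log2 fold change was 0.040 ± 0.062 (edgeR adjusted p = 0.649, 95% interval -0.088 to 0.17). TEAD4 (chromosome 12, 2959330 to 3040673, plus strand) was at 11.0, 12.97 and 12.1 CPM in control and 12.2, 12.9 and 12.4 in shtRF, a change of 0.056 ± 0.085 (adjusted p = 0.649 by edgeR, interval -0.12 to 0.23). For both genes the groups overlapped, and the intervals exclude a change of the size seen for TEAD2.

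TEAD1 (chromosome 11, 12674591 to 12944483, plus strand), a broadly expressed TEAD known from the control of muscle genes, was barely detected. It had 12, 6 and 11 counts in control and 18 in each shtRF library. The log2 fold change of 1.01 ± 0.51 did not pass the test (edgeR adjusted p = 0.127, interval -0.053 to 2.08), and at this depth the size of any change was not resolved.

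**Figure D2:**
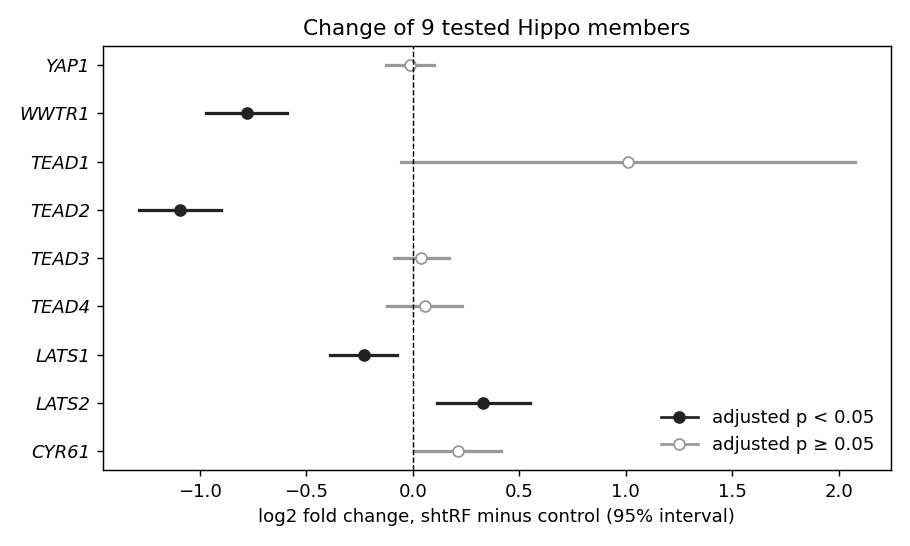
Log2 fold change of the 9 tested members, shtRF minus control, with 95% intervals from the edgeR fit; filled points have an adjusted p under 0.05. WWTR1 (-0.78) and TEAD2 (-1.09) lie well below 0, LATS1 (-0.23) and LATS2 (0.33) lie on opposite sides, and TEAD1 has the widest interval.

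As a share of the summed RPKM of the 4 TEADs, TEAD2 made up 28.8, 27.0 and 24.0% of control libraries 1 to 3, and 14.3, 13.7 and 14.3% of the shtRF ones. TEAD3 held 46.8 ± 1.75% in control and 54.4 ± 1.09% in shtRF (SD, n = 3), TEAD4 held 26.6 ± 1.88% and 31.3 ± 1.37%, and TEAD1 held 0.0657 and 0.149%. The shares of one library add up to the whole, so a lower share of one TEAD raises the others. The sum of the 4 was 20.3 ± 0.670 RPKM in control and 17.3 ± 0.724 in shtRF. None of these values overlapped between groups, and each exact permutation test gave p = 0.1, the smallest possible (0.114 adjusted over 8). The TEAD1 share rests on 6 to 18 counts per library. TEAD1 passed the count filter only through the shtRF libraries, so no weight is put on the separation of its share. With the CD37 counts taken away the share of TEAD2 was 6.48% in control and 1.78% in shtRF, TEAD3 went from 59.6 to 62.2%, TEAD4 from 33.8 to 35.8%, and the sum from 15.9 to 15.1 RPKM. The shares of TEAD3 and of TEAD4 and the sum then overlapped between groups.

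**Figure D3:**
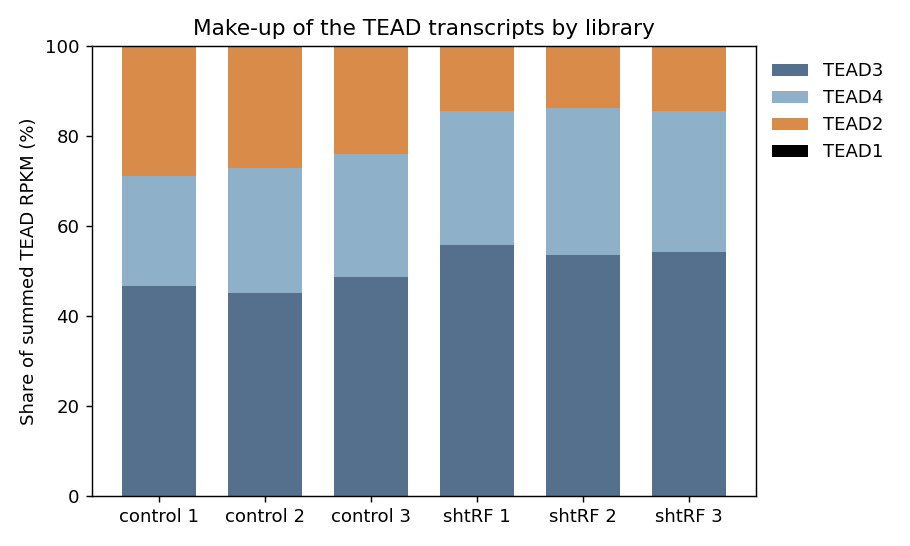
Share of each TEAD gene in the summed RPKM of the 4 TEADs, as stacked bars, 1 bar per library. TEAD3 holds the largest share in all 6 libraries, TEAD2 takes 24.0 to 28.8% in control and 13.7 to 14.3% in shtRF, and TEAD1 is too small to see (at most 0.163%).

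The 2 kinases that phosphorylate YAP and TAZ moved in opposite directions, each by a small amount. LATS1 (chromosome 6, 149658153 to 149718256, minus strand) was at 15.8, 15.6 and 15.2 CPM in control and 13.7, 13.2 and 12.9 CPM in shtRF, a log2 fold change of -0.23 ± 0.076 (edgeR adjusted p = 0.0191). LATS2 (chromosome 13, 20973032 to 21061547, minus strand), itself known as a gene that YAP and TAZ switch on, was at 5.87, 5.59 and 5.35 CPM in control and 7.55, 6.70 and 6.89 CPM in shtRF, a change of 0.33 ± 0.11 (adjusted p = 0.0154). The groups of neither gene overlapped. Both calls depended on single libraries: LATS1 was not called without shtRF replicate 2 (adjusted p = 0.0617) or 3 (0.082), and LATS2 was not called without shtRF replicate 1 (0.0814).

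Within each library the RPKM ratio of LATS2 to LATS1 was 0.576, 0.554 and 0.545 in control and 0.854, 0.788 and 0.830 in shtRF. LATS1 was the more abundant of the pair in all 6 libraries. The ratio was higher in each shtRF library than in any control library (exact permutation p = 0.1, the smallest possible, 0.114 adjusted over 8).

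The 2 targets that most often serve as readouts of YAP and TAZ gave little signal. CYR61 (CCN1, a matricellular protein, chromosome 1, 85580761 to 85583962, plus strand) was at 7.73, 8.38 and 7.62 CPM in control and 8.26, 10.1 and 9.10 CPM in shtRF. The lowest shtRF library was below the highest control library. The log2 fold change of 0.21 ± 0.099 did not pass the test (edgeR unadjusted p = 0.0447, adjusted p = 0.0981, 95% interval 0.0055 to 0.42).

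CTGF (CCN2, a matricellular protein, chromosome 6, 131948176 to 131951373, minus strand) had 4, 2 and 6 counts in control and 0, 2 and 4 in shtRF, in libraries of at least 63541413 counts in all. It was not tested, and no fold is given because both groups were near the floor of 3 counts per library. The promoter shown above with 3 TEAD elements thus belonged to a gene with almost no transcripts in either group, and a difference was not detectable at this depth. Per length, CTGF stood at 0.00734 of CYR61 in control and 0.00349 in shtRF (exact permutation p = 0.2, adjusted p = 0.2). Of the other CCN genes, 3 of 4 had too few counts, and NOV (CCN3), outside the naming rule for its low level and named after its values were seen, had 38, 84 and 60 counts in control and 14, 12 and 18 in shtRF (log2 fold change -1.89 ± 0.39, adjusted p = 0.00045).

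Beyond the 10 members, 7 lists of pathway genes held 96 entries, of which 94 matched a row and 80 were tested. Of the 80, 31 were higher and 10 lower in shtRF (38.8% and 12.5%, beside 20.6% and 18.9% of all tested genes), with a median log2 fold change of 0.13. With upper quartile scaling, 28 were higher and 12 lower. All 7 lists were chosen with earlier results of these data known, so the shares in them are a description and no more. The plot of the lists shows 5 of them.

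**Figure D4:**
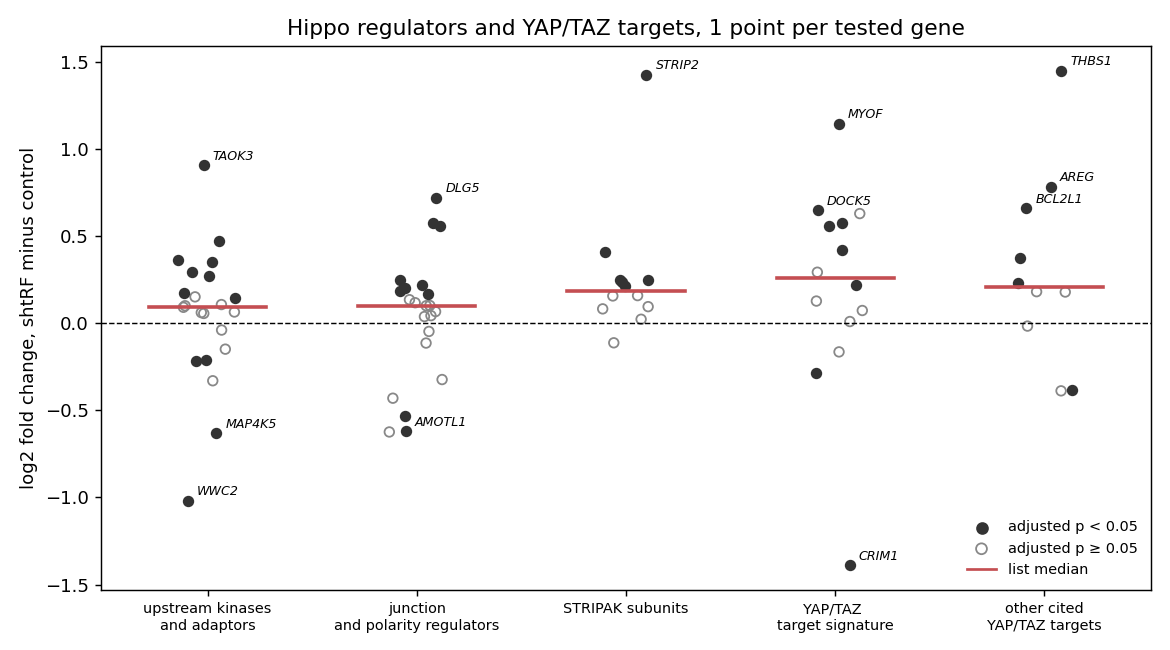
Log2 fold change, shtRF minus control, of each tested gene in 5 lists; filled points have an adjusted p under 0.05, the bar is the list median and called genes beyond 0.6 in either direction are named. The medians run from 0.10 to 0.26, TAOK3, STRIP2, MYOF and THBS1 lie furthest above 0 in their lists, and WWC2 and CRIM1 lie furthest below 0.

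Of the 22 upstream kinases and adaptors, all tested, 8 rose (36.4%), 4 fell (18.2%) and 10 did not pass, beside 20.6% higher and 18.9% lower of all tested genes, with a median of 0.10. TAOK3, a kinase that activates MST kinases, was at 207, 203 and 206 CPM in control and 356, 404 and 396 CPM in shtRF (0.91 ± 0.056, edgeR adjusted p = 2.4e-11). WWC2, a KIBRA-family scaffold that promotes LATS activation, was at 45.0, 43.97 and 47.2 CPM in control and 21.6, 23.3 and 22.2 in shtRF (-1.02 ± 0.061, adjusted p = 1.5e-11). In both genes the groups were far apart. Among the kinases that can act on LATS in parallel to MST, MAP4K5 fell from 43.6 ± 3.52 to 28.2 ± 2.24 CPM and MINK1 rose from 81.3 ± 2.28 to 113 ± 2.62 (SD, n = 3). STK38, a relative of LATS, rose from 27.0 ± 0.790 to 34.7 ± 0.761 CPM.

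Of the 25 junction and polarity regulators, 22 were tested: 8 rose (36.4%), 2 fell (9.09%) and 12 did not pass, with a median of 0.10. The shares over all tested genes were 20.6% higher and 18.9% lower. The angiomotins, which tether YAP at junctions, divided: AMOTL1 fell from 110 ± 2.51 to 71.6 ± 3.17 CPM (-0.62 ± 0.054, edgeR adjusted p = 5.14e-09) and AMOTL2 rose from 45.1 ± 3.0 to 66.4 ± 0.239 (0.56 ± 0.058, adjusted p = 8.3e-08). AMOT, the third of the family, was lower, at 2.82 ± 0.205 and 1.95 ± 0.339 CPM (adjusted p = 0.0148), and lost its call without control replicate 3 (0.0518), shtRF replicate 1 (0.0674) or shtRF replicate 3 (0.0547). DLG5, a polarity scaffold, rose from 173 ± 7.78 to 286 ± 12.1 CPM. It shares at most 18.03% of its exonic bases with RP13-39P12.3, itself at 4.32 and 6.18 CPM. AJUBA, a LIM protein that holds back LATS, rose from 38.4 ± 6.49 to 57.1 ± 5.05 CPM. Without shtRF replicate 3 the list had 5 genes higher, and without control replicate 3 or shtRF replicate 1 it had 1 lower.

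The STRIPAK complex joins a phosphatase to MST kinases and turns them off. All 12 of its listed subunits were tested: 6 rose (50%), 0 fell and 6 did not pass at an edgeR adjusted p under 0.05, beside 20.6% higher and 18.9% lower of all tested genes, with a median of 0.19. The count of subunits that fell was also 0 by DESeq2 and at an unadjusted edgeR p under 0.05; the 1 subunit with a value below 0 was the phosphatase scaffold PPP2R1A, at -0.11 (adjusted p = 0.151), named after its values were seen. STRIP2, a scaffold of the complex, was at 21.2, 18.9 and 19.7 CPM in control and 56.7, 50.9 and 53.3 CPM in shtRF, a 2.69-fold rise (1.43 ± 0.065, edgeR adjusted p = 1.34e-13). The other named subunits rose far less: SIKE1 by 0.41 ± 0.056, SLMAP, which links the complex to MST, by 0.25 ± 0.054, the phosphatase subunit PPP2CA by 0.25 ± 0.051 and STRN by 0.24 ± 0.054 on the log2 scale. CTD-2410N18.5, on the same strand as PPP2CA, covers at most 9.22% of the exonic bases of PPP2CA. CTD-2410N18.5 was itself at 172 CPM in control and 193 in shtRF, so reads over the shared bases cannot be told apart. VGLL4, a cofactor that competes with YAP for TEADs and the 1 tested gene of its family, had a change of 0.18 ± 0.072 that did not pass (adjusted p = 0.0508).

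Of the 18 matched genes of a YAP and TAZ target signature (LATS2, CYR61 and CTGF, also in it, are given above), 14 were tested: 6 rose (42.9%), 2 fell (14.3%) and 6 did not pass, with a median of 0.26. The shares over all tested genes were 20.6% higher and 18.9% lower. MYOF, a membrane repair protein, was at 55.9, 60.2 and 58.7 CPM in control and 124, 127 and 137 in shtRF (1.15 ± 0.056, edgeR adjusted p = 5.32e-13). CRIM1, a transmembrane protein that binds BMPs, went the other way, from 3.26, 4.28 and 4.11 CPM to 1.59, 1.28 and 1.58 (-1.39 ± 0.17, adjusted p = 6.19e-07). DOCK5, an exchange factor for Rac, rose from 79.2 ± 0.300 to 124 ± 2.67 CPM, TGFB2 from 1.79 ± 0.228 to 2.66 ± 0.155, and AMOTL2, given above, also belongs to this list. TGFB2 shares at most 26.6% of its exonic bases with TGFB2-OT1, which had 4 to 28 counts per library.

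A further 4 genes of the signature had too few counts to test. ANKRD1, a widely used target, had at most 10 counts in any library, AXL at most 12, NT5E at most 7 and RBMS3 at most 9. ANKRD1 and CTGF, both frequent readouts of YAP activity, were thus nearly silent in both groups.

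Of 12 other cited targets, 10 were tested: 5 rose (50%), 1 fell (10%) and 4 did not pass, with a median of 0.21. The shares over all tested genes were 20.6% higher and 18.9% lower. THBS1, a secreted matrix glycoprotein, was at 910, 931 and 934 CPM in control and 2521, 2482 and 2583 CPM in shtRF, a 2.73-fold rise (1.45 ± 0.054, edgeR adjusted p = 6.28e-15). The groups were far apart. CTD-2033D15.3, which overlaps at most 7.56% of the exonic bases of THBS1, was at 12.2 and 29.9 CPM. AREG, an EGFR ligand, rose from 3.59 ± 0.357 to 6.17 ± 0.378 CPM (SD, n = 3). BCL2L1, which blocks apoptosis, rose from 59.9 ± 3.21 to 94.7 ± 3.02 CPM. But it shares at most 43.0% of its exonic bases with the antisense gene ABALON, at 49.8 and 82.0 CPM, and the 2 cannot be told apart. Of the genes in this list that act in cell division, BIRC5 fell from 38.6 ± 3.22 to 29.6 ± 2.12 CPM. ANLN rose from 203 ± 27.9 to 263 ± 15.2 CPM. AURKA and CDC20, which also act there, did not pass (log2 fold changes -0.016 and 0.18, edgeR adjusted p = 0.900 and 0.0591). Both lie outside the naming rule and are named after their values were seen.

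Over both target lists, 24 genes were tested, of which 11 were higher (45.8%) and 3 lower (12.5%), beside 20.6% and 18.9% of all tested genes, with a median of 0.23. In the promoter windows, 6 of the 13 signature genes with a window and 2 of the 8 other targets with one held the TEAD element in at least 1 window, where some genes had several windows. Of the 11 that rose, 9 had a window: 5 of these held the letters (THBS1, AMOTL2, TGFB2, PTPN14 and EDN1) and 4 did not (MYOF, AREG, BCL2L1 and ANLN). None of the 3 that fell had a window, so the letters cannot be compared between genes that rose and genes that fell. Matches were also held by NUAK2 (2), which did not pass, and by ANKRD1 (2) and AXL (1), which had too few counts to test. PTPN14, EDN1 and NUAK2, outside the naming rule, are named here after their values were seen. The share of windows with a match was 40% in the signature, 15.4% in the other targets and 14.03% over all windows, which is given as a description of letters without a test.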

How the data were processed

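RNA was extracted with TRIzol, made into stranded mRNA libraries and read in pairs on an Illumina NovaSeq sequencer. Per the labels, the submitters' processing notes name Trimmomatic 0.36, featureCounts of Subread 1.5.1, edgeR 3.12.1 and GRCh38. The aligner, annotation release and strand setting are not given in the sources used here. The authors deposited raw read counts per gene for 36517 genes. Of the deposited RPKM rows, only 4997 were complete. In the 4991 of these that could be compared, RPKM equalled count per length and per total count within a relative tolerance of 0.0001. The remaining RPKM values were not checked, and RPKM was recomputed from the counts. The authors' own comparison columns, with fold changes and p-values, were not used.

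Counts were fitted with edgeR 4.0.16 in R 4.3.3 (filterByExpr, TMM scaling, glmQLFit and glmQLFTest, all 6 libraries, group as the only term), with Benjamini-Hochberg adjustment over 19628 genes and a threshold of 0.05. The CPM values are scaled with the TMM factors (0.961 to 1.03). Library totals were 63933631, 73684127 and 78917459 counts in control and 69695602, 71471440 and 63541413 in shtRF. Of counts from 1 to 4, 74.2 to 77.1% were even per library, beside 49.7 to 50.7% of counts with 4 digits or more, so a count may stand for 1 mate of a pair; halved counts were an alternative. On simulated data for this comparison (19307 genes), 191 of 200 changed genes were recovered with 15 false calls. The recovery is not given by size of change or count level. Recovery with as many changed genes as were called in the data (7750 of 19628) was not tested. Ratios of members within a library were compared with exact two-sided permutation tests. Exonic overlap was taken from the annotation, over all other genes on either strand. The neighbour named is the one that shares the most bases, so its own share is at most the percentage given. Subtraction of the counts of that neighbour alone was added after seeing the data. Alternatives were RLE and upper quartile scaling, other filters, DESeq2 1.42.0, the replicate block, halved counts and leaving out each library. Same-numbered libraries deviated from their group means with correlations of 0.0592, 0.0178 and 0.0174, so the numbers were not taken to pair them.

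The members and lists were chosen with earlier results of these data known. Genes named beyond the members were, per list, up to 5 with an adjusted p under 0.05 and a mean of at least 1 CPM, by size of change, and signature genes with too few counts. INADL was matched as PATJ, and VGLL2, FOXF2 and LUM had no row. The result for 1 marker gene is not reported here.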

Additional observations from a re-analysis of the deposited data

How the results depend on the processing

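WWTR1 and TEAD2 kept their direction and call in all 14 alternatives run for each, with log2 fold changes of -0.86 to -0.74 and -1.87 to -1.04. YAP1 changed sign around 0 (-0.040 to 0.028 with 1 library left out, 0.0075 with the overlapping counts taken away), as did TEAD4 (-0.0091 to 0.10 with 1 library left out); neither was called in any alternative. LATS1 ranged from -0.26 to -0.21 and LATS2 from 0.27 to 0.37 with 1 library left out, with the calls lost as given above. The junction and polarity list had 5 to 8 genes higher and 1 to 3 lower with 1 library left out. Where a library was left out the fit had fewer samples; other causes were not tested. The replicate block gave 4123 genes higher and 3776 lower and changed no member's call (LATS1 adjusted p = 0.0187, LATS2 0.0147). Of 312 alternative values for the other named genes, 309 kept direction and call, and the 3 that did not were those of AMOT. The depth limits TEAD1, CTGF and ANKRD1, at most 18 counts per library.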
